A study of Mus musculus with 40 samples.

Results

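Mast cell genes were followed across the tumors of 40 mice. They were Cpa3, Cma1, Mcpt4, Tpsb2, Kit, Fcer1a and Ms4a2, 7 of the 54087 genes in the count table, taken by their symbols. All 7 passed a filter on low counts that 14760 genes passed. Each mouse carried a CT26 tumor, grown from a transplanted mouse colon carcinoma line, and received mAbs by injection on day 6, day 9 and day 12 before the tumor was taken on day 13. There were 8 groups of 5 mice: the isotype control mAb motavizumab, anti-GARP:TGF-β1 (clone 58A2) as WT mIgG2a or as Fc-dead FcD mIgG2a, anti-TGF-β (clone 1D11), Fc-silent anti-PD-1, and anti-PD-1 combined with each of the other 3 blocking mAbs, called here the WT combination, the FcD combination and the anti-TGF-β combination. RNA came from fragments of whole tumors of 1 transplanted line, with 1 library per mouse.

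Mast cells are tissue-resident granulocytes that mature from circulating precursors and depend on the receptor Kit. They fill their granules with proteases, histamine and heparin, and release them when antigen cross-links IgE held by the high-affinity IgE receptor. In mouse skin and connective tissue they store chymases, tryptase and carboxypeptidase A, whereas mucosal mast cells are known for the chymases Mcpt1 and Mcpt2. Among the genes followed here, Cpa3 encodes carboxypeptidase A3, Cma1 and Mcpt4 encode chymases, and Tpsb2 encodes a tryptase. Kit encodes the receptor for stem cell factor, Fcer1a the IgE-binding α chain and Ms4a2 the signal-amplifying β chain of the IgE receptor. RNA of a whole tumor does not tell fewer cells of a type from less RNA per cell.

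Total counts per mouse ran from 11931730 to 20680548, with a median of 14030511. Libraries 41 to 60 held Y-linked transcripts (4 genes, summed level from 21.6 to 84.1 counts per 1000000 counts, CPM) and libraries 61 to 80 held Xist (62.7 to 791 CPM), and each group had 2 or 3 mice in each of these parts of the series. The mast cell genes differed by a log2 fold change of -0.39 to -0.01 between the 61 to 80 part and the 41 to 60 part. None of the 7 passed an adjusted p of 0.05 in that comparison, against 1.68% of all genes. Library 77, of the WT combination, stood apart from the rest, with Ptprc, a gene of all leukocytes, at 782 CPM, whereas the median over the 40 mice was 139.6 CPM. Log2 fold changes of the mast cell genes with the WT combination are given without it as well.

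The genes lie on separate chromosomes, except for the chymases. In GRCm38, Cma1 (chr14:55941451-55944675, minus strand) and Mcpt4 (chr14:56059629-56062313, minus strand) are separated by 114953 bases. Cpa3 lies at chr3:20215620-20242181 (minus strand), Kit at chr5:75574916-75656722 (plus strand), Fcer1a at chr1:173221284-173227214 (minus strand) and Ms4a2 at chr19:11615523-11623719 (minus strand). Tpsb2 (chr17:25366305-25369098, plus strand) is 20742 bases from the related tryptase gene Tpsab1. All are protein-coding, and the only annotated gene that overlaps any of them is the microRNA gene Mir7007, within Cpa3 on the same strand. Of the stretches of 100 bases in their transcripts, which is the read length, none was shared with a transcript of another gene for Cpa3, Cma1, Tpsb2, Kit, Fcer1a or Tpsab1, 1 of 1009 was shared for Mcpt4 (with Cma2) and 13 of 3203 for Ms4a2 (with Ms4a4b).

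The 250 bases before the transcription start are shown for the 6 genes with an entry in the promoter table used, all but Tpsb2. Levels of these genes moved together from mouse to mouse to differing degrees, as described below, and whether the windows bear on that was not tested. They are the RefSeq sequences of GRCm38.p6, read 5′ to 3′ on the strand of the gene. Capitals mark matches to the GATA motif, the letters GATAA or GATAG directly after an A or a T, on either strand. GATA factors are known regulators of mast cells.
Cpa3 (chr3:20242182-20242431, minus strand): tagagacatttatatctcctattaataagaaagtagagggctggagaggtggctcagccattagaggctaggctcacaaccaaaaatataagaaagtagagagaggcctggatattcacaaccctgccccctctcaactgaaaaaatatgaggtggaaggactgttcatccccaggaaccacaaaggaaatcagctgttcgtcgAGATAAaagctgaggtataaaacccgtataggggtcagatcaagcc
Cma1 (chr14:55944676-55944925, minus strand): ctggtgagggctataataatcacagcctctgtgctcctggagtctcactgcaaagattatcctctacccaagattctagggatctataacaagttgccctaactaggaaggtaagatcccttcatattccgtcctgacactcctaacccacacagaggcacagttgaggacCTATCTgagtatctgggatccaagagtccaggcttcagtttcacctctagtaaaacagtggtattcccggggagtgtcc
Mcpt4 (chr14:56062311-56062560, minus strand): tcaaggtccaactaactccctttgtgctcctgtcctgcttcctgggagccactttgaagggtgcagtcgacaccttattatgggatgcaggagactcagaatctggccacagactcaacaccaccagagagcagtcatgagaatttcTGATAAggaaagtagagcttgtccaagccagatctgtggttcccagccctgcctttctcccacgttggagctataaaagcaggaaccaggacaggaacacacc
Fcer1a (chr1:173227230-173227479, minus strand): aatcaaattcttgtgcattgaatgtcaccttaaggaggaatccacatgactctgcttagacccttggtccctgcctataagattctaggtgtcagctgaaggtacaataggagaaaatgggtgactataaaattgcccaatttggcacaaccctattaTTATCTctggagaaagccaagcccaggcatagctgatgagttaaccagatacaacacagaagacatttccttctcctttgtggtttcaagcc
Ms4a2 (chr19:11623720-11623969, minus strand): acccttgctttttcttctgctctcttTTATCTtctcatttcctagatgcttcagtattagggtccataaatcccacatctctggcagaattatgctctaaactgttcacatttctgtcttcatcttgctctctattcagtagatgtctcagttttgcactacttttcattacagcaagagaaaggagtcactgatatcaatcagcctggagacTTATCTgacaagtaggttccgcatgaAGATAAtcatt
Kit (chr5:75574737-75574986, plus strand): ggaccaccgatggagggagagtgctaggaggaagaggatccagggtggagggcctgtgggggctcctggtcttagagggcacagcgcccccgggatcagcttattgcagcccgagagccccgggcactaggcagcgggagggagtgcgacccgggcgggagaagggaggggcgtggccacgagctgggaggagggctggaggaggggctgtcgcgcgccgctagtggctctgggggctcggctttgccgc
The motif was found in 5 of the 6 genes, where 29.7% of the 27025 genes in the table, and 26.5% of their 32851 windows of this length, held it. The match began 46 bases before the start in Cpa3, 79 in Cma1, 103 in Mcpt4 and 92 in Fcer1a, and Ms4a2 held 3 matches, at 224, 37 and 11 bases. No match was found in the window of Kit shown, nor in that of its other listed start. Of the other genes most like the 7 in level, named below, 6 had an entry and 4 of these held the motif. Mefv and A530064D06Rik, with rho of 0.85 and 0.82, held none. A match describes letters in the sequence and is not a measured binding site.

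The granule proteases were the most abundant of these genes. Per kilobase of exon, the isotype control tumors held 12.4 ± 6.2 CPM of Tpsb2 (SD, n = 5), 11.7 ± 5.3 of Cma1, 10.8 ± 4.3 of Mcpt4 and 8.71 ± 3.77 of Cpa3. These 4 levels overlapped from mouse to mouse. The receptor genes were lower, at 1.54 ± 0.68 CPM per kilobase for Fcer1a, 0.68 ± 0.17 for Kit and 0.23 ± 0.14 for Ms4a2. In counts, Tpsb2 ran from 129 to 2402 over the 40 mice and Cpa3 from 83 to 1578, but Fcer1a from 6 to 143 and Ms4a2 from 2 to 82, so that the values of both IgE receptor chains carry more counting error.

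Other genes of connective tissue and mucosal mast cells were read in counts. Tpsab1, the other tryptase gene, had a median of 708.5 counts (280 to 3771), and Mrgprb2, a receptor of connective tissue mast cells for basic secretagogues, had 16.5 (3 to 161). The mucosal chymase genes Mcpt2 and Mcpt1 had medians of 10 (0 to 37) and 2 (0 to 17), so that the ranges of Mrgprb2 and Mcpt2 overlapped, and Mcpt9 was at 0 in all 40 mice. Of the 4 basophil genes listed, the proteases Mcpt8 and Prss34 ran from 0 to 19 and from 0 to 2 counts, Cd200r3 from 1 to 73 and Itga2b, which megakaryocytes also express, from 59 to 159. Their summed level was 5.58 to 7.48 CPM in the isotype control and 7.66 to 13.3 CPM in the WT combination (at most 9.71 CPM without library 77), and its rho with the mast cell genes over the 40 mice was 0.66. Cd200r3 alone had a rho of 0.72 and Itga2b of 0.23. RNA of whole tumors does not assign the counts of Cd200r3 to basophils or to mast cells. The part of these 4 genes in the results was not tested. Of the eosinophil genes, Prg2 and Epx ran from 0 to 6 and from 0 to 2 counts, Siglecf from 0 to 18 and Ccr3 from 1 to 62. Of the melanocyte genes, whose cells also use Kit, Pmel ran from 1 to 12 counts, and Dct, Mlana, Tyrp1 and Tyr reached at most 7, 5, 2 and 1.

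The first question was whether blocking GARP:TGF-β1, alone or with PD-1, changed these genes by comparison to the isotype control. With the WT combination, all 7 had a mean higher by 2.52-fold (Kit) to 4.44-fold (Ms4a2), but none passed the adjusted p of 0.05. In the control tumors, Cpa3 was at 17.5, 12.6, 9.16, 6.52 and 20.4 CPM (mean 13.2 ± 5.7, SD, n = 5). In treated tumors it was at 31.1, 27.0, 45.9, 30.1 and 98.2 CPM (46.4 ± 29.9). All 5 treated tumors lay above all 5 control tumors, and the highest value was that of library 77. The log2 fold change of Cpa3 was 1.81 ± 0.49 (SE), with an adjusted p of 0.159.

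Tpsb2 was at 35.0, 19.0, 12.4, 10.1 and 22.03 CPM in control tumors, and at 58.0, 32.1, 63.9, 43.9 and 149.5 CPM with the WT combination. The groups overlapped by 1 treated tumor, and the log2 fold change was 1.81 ± 0.48. Cma1 had a log2 fold change of 1.75 ± 0.47 and Mcpt4 of 1.55 ± 0.45. For both chymases every treated tumor exceeded every control tumor, with Cma1 at 24.7 to 80.9 against 6.36 to 19.7 CPM and Mcpt4 at 24.4 to 54.7 against 5.74 to 17.4 CPM.

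Of the receptor genes, Fcer1a was at 2.16, 1.42, 1.53, 0.47 and 2.08 CPM in control tumors and at 3.79, 2.98, 4.49, 4.09 and 8.90 CPM with this combination. Ms4a2 was at 0.99, 0.45, 0.21, 0.47 and 1.11 CPM in controls and at 2.55, 1.64, 2.97, 2.34 and 5.10 CPM with the combination. Neither gene overlapped between the groups, and the log2 fold changes were 1.65 ± 0.47 and 2.15 ± 0.60. Kit was at 6.68, 8.29, 5.83, 4.32 and 5.13 CPM in controls and at 9.48, 6.06, 13.7, 8.48 and 38.5 CPM with the combination. Library 55, at 6.06 CPM, lay within the control range, and library 77 was far above the other mice. The log2 fold change of Kit was 1.33 ± 0.37.

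The groups did not overlap for 5 of the 7 genes, whereas every treated tumor exceeded every control tumor for 1.35% of all genes. All 7 had an unadjusted p under 0.05 and a higher mean, against 13.2% of all genes, and their median log2 fold change was 1.75, against 0.01 over all genes. The unadjusted p ran from 0.00064 to 0.00152 in edgeR's quasi-likelihood test, and no gene of the 14760 passed the adjusted threshold, which gave 0.159 for each of the 7. Among markers of other cells, Ptprc had a log2 fold change of 1.17 ± 0.42, which did not pass the adjusted p. The 4 leukocyte genes summed to 906 CPM in library 77 and to 165 to 285 CPM in the other 4 tumors, against 127 to 210 in controls. The 4 macrophage genes summed to 3802 CPM in library 77 and to 813 to 1397 CPM in the others, against 765 to 1142 in controls. Their part in the result was not tested.

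Library 77 weighed on these values. Without it, the log2 fold changes ran from 0.64 for Kit to 1.85 for Ms4a2, with a median of 1.33 and an adjusted p of 0.798 for each gene. All 7 still had an unadjusted p under 0.05 and a higher mean, against 2.80% of all genes. Ptprc went from 1.17 to 0.44 ± 0.37. In libraries 61 to 80, the difference of mean log2 CPM between the groups ran from 1.68 to 2.42 over the 7 genes (3 mice against 3), and in libraries 41 to 60 from 0.03 to 1.43 (2 against 2).

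**Figure D1:**
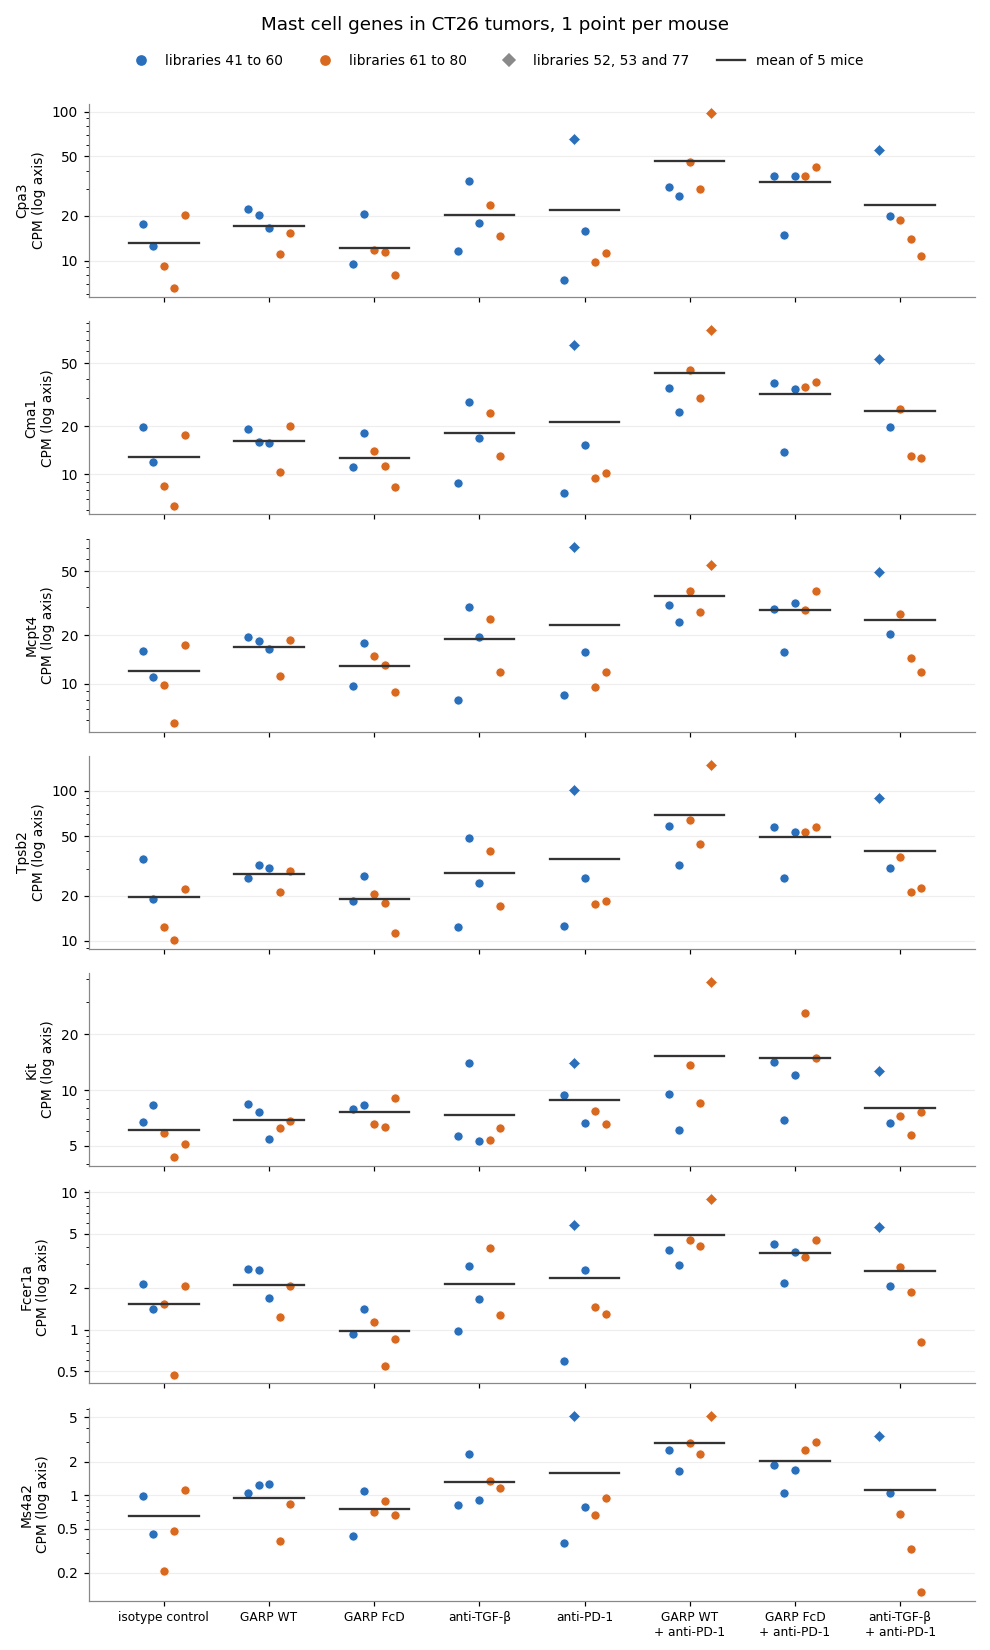
Levels of the 7 mast cell genes in CPM (vertical axis, logarithmic) in each mouse of the 8 groups (horizontal axis, where GARP stands for anti-GARP:TGF-β1), with 1 point per mouse, the mean as a line and libraries 52, 53 and 77 as diamonds. With the WT combination, Cpa3 sits between 27.0 and 98.2 CPM, above all control mice, whereas single high tumors raise the means with anti-PD-1 and with the anti-TGF-β combination.

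With the FcD combination, the same 7 genes had means 2.32-fold (Fcer1a) to 3.11-fold (Ms4a2) above the isotype control, and none passed the adjusted p of 0.05. Cpa3 was at 36.8, 14.8, 36.9, 37.1 and 42.3 CPM, and Tpsb2 at 57.8, 26.2, 53.5, 52.9 and 57.3 CPM. Library 50 held the low value of both genes, within the control range, and the other 4 tumors lay above all controls. The log2 fold change was 1.34 ± 0.49 for Cpa3 and 1.33 ± 0.48 for Tpsb2.

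Kit ran from 6.86 to 26.1 CPM over the 5 mice of the FcD combination, with a log2 fold change of 1.29 ± 0.37, and library 50 was again the lowest. Fcer1a, at 2.19 to 4.51 CPM, was the only one of the 7 for which all 5 treated tumors exceeded all controls, by a margin of 2.19 to 2.16 CPM, where 1.96% of all genes showed this. Adjusted p ran from 0.225 to 0.243 over the 7 genes. All 7 had an unadjusted p under 0.05 and a higher mean, against 10.7% of all genes. The median log2 fold change was 1.31, against 0.00 over all genes.

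Leaving out any single mouse moved that median only between 1.16 and 1.47. Within libraries 41 to 60 the 7 differences of mean log2 CPM ran from 0.50 to 1.01, and within libraries 61 to 80 from 1.62 to 2.18. The 6 adipocyte genes examined, among them the adipokine gene Adipoq, all had an unadjusted p under 0.05 and a higher mean with the FcD combination, against 10.7% of all genes, and a median log2 fold change of 3.21, and summed to 89.0 to 1115 CPM against 30.6 to 151 in controls. Of the 7 dermal fibroblast genes, 4 had an unadjusted p under 0.05 and a higher mean. Ptprc was at 107 CPM in library 50 and at 260 to 282 CPM in the other 4 tumors, against 107 to 176 CPM in controls. The 4 leukocyte genes, Ptprc among them, summed to 118 CPM in library 50 and 291 to 333 CPM in the others, against 127 to 210 in controls. The 4 macrophage genes summed to 1013 to 1643 CPM (765 to 1142 in controls) and the 4 neutrophil genes to 15.01 to 98.7 CPM (1.80 to 38.6 in controls). Their part in the result was not tested.

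With the anti-TGF-β combination, no mast cell gene passed the adjusted p, and 2 of 7 had an unadjusted p under 0.05 with a higher mean, against 8.49% of all genes. They were Mcpt4, with a log2 fold change of 1.04 ± 0.45, and Tpsb2, with 1.02 ± 0.48. Cpa3 was at 54.9, 20.1, 18.6, 13.9 and 10.8 CPM, so that 1 tumor, library 53, exceeded the controls and the other 4 fell in their range. Within libraries 41 to 60, which hold library 53, the differences of mean log2 CPM ran from 0.30 to 1.33, and within libraries 61 to 80 from -0.44 to 0.88. The median log2 fold change of the 7 genes was 0.83 with library 53 and 0.32 without it, and adjusted p ran from 0.201 to 0.544 with all mice. Ptprc was at 243 CPM in library 53 and at 93.8 to 147 CPM in the other 4 tumors, against 107 to 176 CPM in controls. The 4 macrophage genes summed to 1088 to 1366 CPM (765 to 1142 in controls) and the 4 neutrophil genes to 11.5 to 99.5 CPM (1.80 to 38.6 in controls). Their part in the result was not tested.

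Each mAb was also given alone. With anti-PD-1, Cpa3 was at 7.39, 65.0, 15.8, 9.73 and 11.3 CPM, and Ms4a2 at 0.37, 5.10, 0.78, 0.66 and 0.94 CPM. Library 52 held the high value of both, and the other 4 tumors lay within the range of the controls. Mcpt4 (log2 fold change of 0.96 ± 0.45) and Ms4a2 (1.27 ± 0.61) had an unadjusted p under 0.05, 2 of 7 against 0.603% of all genes with a higher mean, and no gene passed the adjusted p. Without library 52 the median log2 fold change of the 7 genes went from 0.75 to -0.07. Library 52 held 286 CPM of Ptprc. It was also the highest of the anti-PD-1 group in the summed skeletal muscle, keratinocyte, macrophage, leukocyte and basophil genes. The 6 skeletal muscle genes summed to 163 CPM in it, 2.36 to 6.13 CPM in the other 4 tumors and 1.26 to 4.02 CPM in controls. The 7 keratinocyte genes summed to 30.4 CPM, against 3.78 to 5.69 CPM and 3.77 to 5.42 CPM, and the 4 macrophage genes to 1418 CPM, against 537 to 861 CPM and 765 to 1142 CPM. Their part in the result was not tested.

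With anti-TGF-β alone, the 7 genes had log2 fold changes of 0.27 (Kit) to 1.01 (Ms4a2, ± 0.61). Cpa3 was at 11.6, 34.2, 17.9, 23.6 and 14.5 CPM, and 3 of the 5 control tumors lay within that range. Library 48, the highest, held 371 CPM of Ptprc, against 107 to 176 CPM in controls. Without library 48 the log2 fold changes ran from -0.10 (Kit) to 0.70 (Ms4a2). The part of Ptprc in the result was not tested. With anti-GARP:TGF-β1 WT alone, log2 fold changes ran from 0.19 (Kit) to 0.56 (Ms4a2), with Cpa3 at 22.2, 20.1, 16.5, 11.1 and 15.3 CPM. With the FcD form alone, they ran from -0.66 (Fcer1a, ± 0.49) to 0.33 (Kit, ± 0.37), with Cpa3 at 9.46, 20.4, 11.8, 11.4 and 8.03 CPM. None of the 7 had an unadjusted p under 0.05 with any of these 3 mAbs alone, where 1.77%, 0.583% and 0.264% of all genes had one and a higher mean, in the same order.

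**Figure D2:**
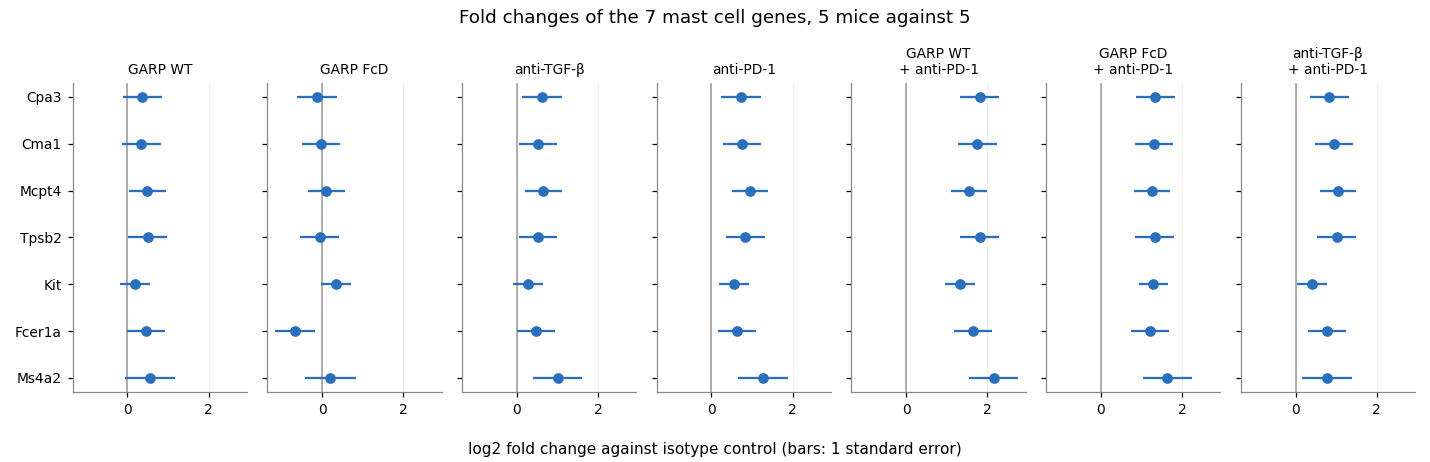
Log2 fold change against the isotype control (horizontal axis) of the 7 mast cell genes (vertical axis) in the 7 treated groups (panels, where GARP stands for anti-GARP:TGF-β1), with bars of 1 standard error. Both combinations of anti-GARP:TGF-β1 with anti-PD-1 put all 7 genes above 1, where 7.13% (WT) and 7.38% (FcD) of all genes lay, and anti-GARP:TGF-β1 FcD alone put them between -0.66 and 0.33.

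The mice given a combination were next compared with those given anti-PD-1 alone, which serve as the control of all 3 comparisons. With the WT combination, 5 of 7 genes (Cpa3, Cma1, Tpsb2, Kit and Fcer1a) had an unadjusted p under 0.05 and a higher mean, against 11.2% of all genes. Log2 fold changes ran from 0.59 (Mcpt4) to 1.08 (Cpa3, ± 0.48) and adjusted p from 0.258 to 0.466, and none passed. Without library 52 of the anti-PD-1 group, 6 of the 7 passed, all except Kit, with log2 fold changes of 1.62 to 2.07 for the 6 and adjusted p of 0.0405 to 0.0413, where 3.68% of all genes passed. Without library 77 the median of the 7 was 0.58, with adjusted p from 0.818 to 0.947. Of the 10 tumors compared, library 52 was the only one whose removal changed a call among the 7. In libraries 61 to 80, the differences of mean log2 CPM ran from 1.20 (Kit) to 2.28 (3 mice against 2), and in libraries 41 to 60, which hold library 52, from -0.33 (Kit) to 0.70 (2 against 3).

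Adding the FcD mAb to anti-PD-1 gave log2 fold changes of 0.31 (Mcpt4) to 0.75 (Kit, ± 0.36), with Kit alone of the 7 under an unadjusted p of 0.05, against 6.46% of all genes with a higher mean. Without library 52 the median went from 0.56 to 1.40, with adjusted p of 0.142 or more. Within libraries 41 to 60 the differences of mean log2 CPM were 0.14 to 0.55, and within libraries 61 to 80 they were 1.41 to 1.90. Adding anti-TGF-β to anti-PD-1 gave a median of 0.11 (1.09 without library 52 and -0.35 without library 53), and none of the 7 had an unadjusted p under 0.05, against 7% of all genes that had one and a higher mean. Within the same 2 parts its differences were -0.06 to 0.75 and -0.98 to 0.70. Isg15, an interferon-induced gene, was the only gene called there, 0.00678% of those tested.

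The WT and FcD forms of anti-GARP:TGF-β1 differ in whether the Fc part can bind FcγRs. When combined with anti-PD-1, the 7 genes were at log2 fold changes of -0.52 to -0.04 in the FcD group relative to the WT group. The median was -0.44 with all mice and -0.07 without library 77, and within the parts of the series the 7 differences of mean log2 CPM ran from -0.42 to 0.47 (41 to 60) and from -0.47 to 0.26 (61 to 80). For Cpa3 the difference was -0.47, with a 95% interval from -1.42 to 0.49, and none of the 7 had an unadjusted p under 0.05, against 0.488% of all genes that were lower at that threshold. Given alone, Fcer1a was at 2.77, 2.73, 1.70, 1.24 and 2.09 CPM with WT and at 0.93, 1.42, 1.13, 0.54 and 0.86 CPM with FcD. The ranges overlapped by 1 mouse of each group, and the log2 fold change was -1.12 ± 0.49, with an adjusted p of 0.999 in edgeR. Fcer1a was the only one of the 7 with an unadjusted p under 0.05 there, and 0.711% of all genes were lower at that threshold. None of the 7 passed in either comparison.

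Whether the effect of a mAb differed with and without anti-PD-1 was tested by interaction terms. The median interaction over the 7 genes was 0.57 on the log2 scale for anti-GARP:TGF-β1 WT, 0.54 for the FcD form and -0.42 for anti-TGF-β, and none of the 7 passed an adjusted or an unadjusted p of 0.05, where 8.75%, 4.49% and 2.30% of all genes had such an unadjusted p. These medians turned on single tumors. Without library 52 they were 1.40, 1.46 and 0.46, in the same order, without library 77 that of WT was 0.02, and without library 53 that of anti-TGF-β was -0.87. The largest for FcD was that of Fcer1a, at 1.25 ± 0.67, and for anti-TGF-β the 7 interactions ran from -1.50 to -0.31. In a test of any difference among the 8 groups, the adjusted p of the 7 genes ran from 0.119 to 0.148, and 4 genes (0.0271%) passed, none of them a mast cell gene. All 7 had an unadjusted p under 0.05 in that test, against 24.7% of all genes. DESeq2's likelihood ratio test called all 7, with adjusted p from 0.00673 to 0.0408, among 1256 genes called. It was run on the 31326 genes with at least 1 count, and not on the 14760 of the other tests.

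Over the 40 mice, the mast cell genes rose and fell together. The 4 proteases had Pearson's r of 0.96 to 0.98 on log2 CPM and Spearman's rho of 0.94 to 0.98 with each other. Over the 15 pairs without Kit, r ran from 0.81 (Fcer1a with Ms4a2) to 0.98, and over the 6 pairs with Kit from 0.62 to 0.74. All 21 pairs had a permutation p of at most 0.001 for either measure after adjustment over the pairs, and the lowest value that the 100000 resamples allow is 1e-05. Without the 2 mice farthest from the median of the first gene, r ran from 0.79 to 0.98 for the pairs without Kit and from 0.56 to 0.64 for those with Kit.

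The relation held within each part of the series and within groups. After group means were removed, r was 0.77 to 0.98 for the pairs without Kit and 0.51 to 0.66 for those with Kit. In libraries 41 to 60 the lowest r of the 21 pairs was 0.54 and in libraries 61 to 80 it was 0.67, each for a pair with Kit. The ratio of Cma1 to Cpa3 ran only from 0.76 to 1.38 over the 40 mice, although Cpa3 itself spanned 15.1-fold. The ratio of Kit to Cpa3 spanned 5.90-fold. Ms4a2 to Cpa3 spanned 6.62-fold, at 2 to 82 counts of Ms4a2.

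Kit parted from the proteases at the low end. In the 28 tumors with under 25 CPM of Cpa3, a level chosen after the values were seen, Kit stayed between 4.32 and 9.38 CPM and had an r of -0.09 with Cpa3, where Cma1 had 0.92. In the 12 tumors above that level, Kit ran from 6.06 to 38.5 CPM, with an r of 0.73 to Cpa3, and Cma1 had 0.97. Kit is also used by other cells than mast cells, and the RNA of whole tumors does not assign its counts to a cell type.

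**Figure D3:**
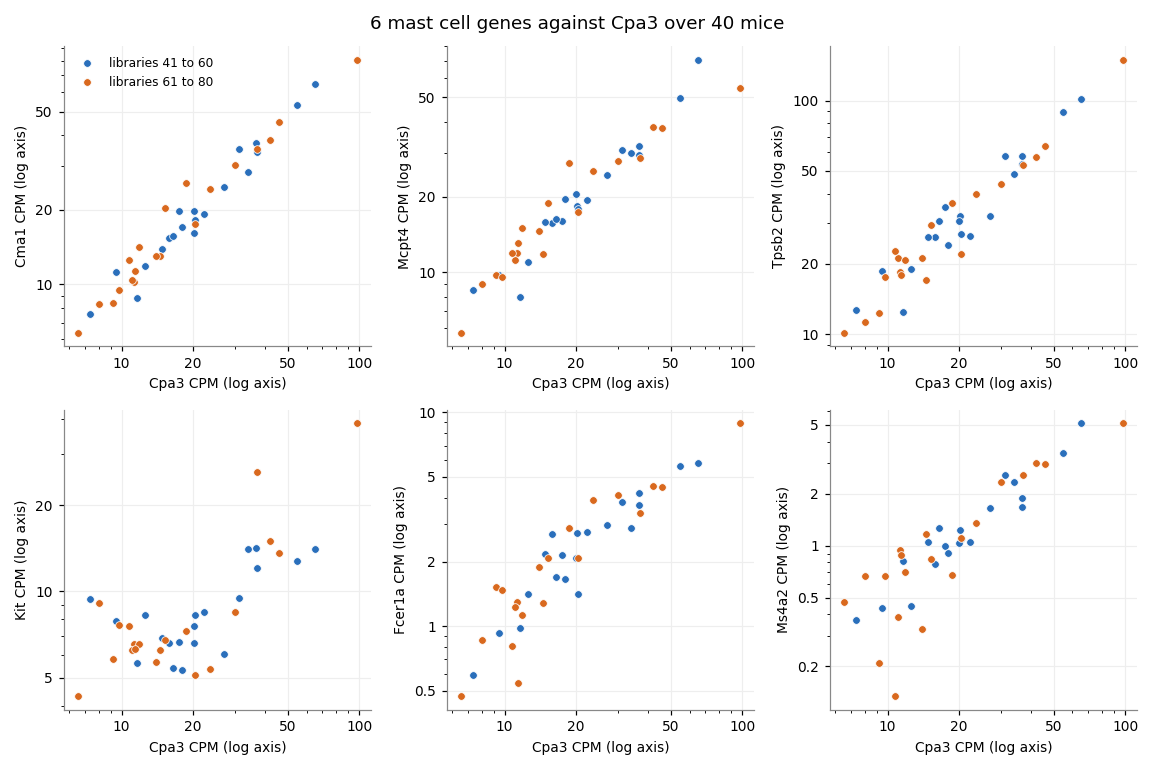
Level of each of 6 mast cell genes (vertical axis, CPM, logarithmic) against that of Cpa3 (horizontal axis, CPM, logarithmic), with 1 point per mouse for the 40 mice, colored by part of the series. Cma1, Mcpt4 and Tpsb2 lie along a line, with r of 0.96 to 0.98 to Cpa3, whereas Kit stays between 4.32 and 9.38 CPM until Cpa3 reaches 25 CPM.

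Of the 14753 other genes tested, those most like the mean log2 CPM of the 7 genes over the 40 mice were Tpsab1 (rho of 0.98), Mrgprb1 (0.93), Cyp11a1 (0.90), Slc18a2 (0.90), Mrgprb2 (0.85), Mefv (0.85), A530064D06Rik (0.82) and Inpp5j (0.81). Only 9 genes exceeded 0.8, and the middle 95% of all genes lay between -0.63 and 0.65. Slc18a2 encodes the vesicular monoamine transporter that loads histamine and serotonin into granules, Mrgprb1 and Mrgprb2 encode receptors of the Mrgpr family, Cyp11a1 the enzyme that starts steroid synthesis from cholesterol, and Mefv the inflammasome protein pyrin. Inpp5j encodes an inositol phosphatase. Mrgprb1, Mrgprb2, Slc18a2 and Tpsab1 stood in the lists of mast cell genes, and the other 4 did not.

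Against the isotype control, Tpsab1 had a log2 fold change of 1.76 ± 0.46 with the WT combination, Mrgprb1 of 1.78 ± 0.56 and Cyp11a1 of 1.94 ± 0.59. In the FcD combination, the values were 1.28 ± 0.45 for Tpsab1, 1.26 ± 0.56 for Mrgprb1 and 1.55 ± 0.59 for Cyp11a1. Without library 77, the WT combination gave 1.40 for Tpsab1, 1.22 for Mrgprb1 and 1.28 for Cyp11a1. These genes were picked for their likeness over the same mice, so that their fold changes are a description, and none passed the adjusted p.

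Of the 12 other granule genes listed, 8 could be tested, and none passed the adjusted p in the comparisons of groups. With the WT combination, 6 of 8 had an unadjusted p under 0.05 and a higher mean, against 13.2% of all genes, with a median log2 fold change of 1.30. Without library 77, 2 of 8 did, Tpsab1 and Srgn, against 2.80% of all genes, with a median of 0.82. The 6 with all mice were Tpsab1, Mcpt2 (1.46 ± 0.70), Slc18a2 (1.77 ± 0.59), Srgn (0.84 ± 0.27), Ndst2 (0.57 ± 0.19) and Tph1. Srgn encodes serglycin, the proteoglycan core of granules, Ndst2 an enzyme of heparin synthesis and Tph1 the first enzyme of serotonin synthesis. Hdc, which makes histamine, was at 0.72 ± 0.46 and the granule protease gene Ctsg at 1.14 ± 0.70, and neither had an unadjusted p under 0.05. With the FcD combination, 5 of 8 did, among them Hdc (1.34 ± 0.46), against 10.7% of all genes, with a median of 1.09.

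Of 12 genes of mast cell lineage and lipid mediators, 11 were tested, and 6 had an unadjusted p under 0.05 and a higher mean with the WT combination, and 5 did in the FcD combination, against 13.2% and 10.7% of all genes. Without library 77, 4 of 11 did with WT, against 2.80% of all genes. Hpgds, the synthase of prostaglandin D, had a log2 fold change of 1.02 ± 0.34 with the WT combination (0.30 ± 0.27 without library 77), and the IL-33 receptor gene Il1rl1 of 0.44 ± 0.18. Ltc4s, the synthase of leukotriene C, was at 1.80 ± 0.77 with the FcD combination and at 0.48 ± 0.79 with WT. Over the 40 mice it had 3 to 83 counts, and its rho with the mast cell genes was only 0.12. The transcription factor genes Gata2 and Mitf were at -0.14 ± 0.11 and 0.22 ± 0.14 with WT, and their rho with the mast cell genes was -0.31 and 0.21. Gata2 and Mitf were abundant, at medians of 52.1 and 29.0 CPM, and other cells in a tumor also express them. Il1rl1 had a median of 417 CPM, where Cpa3 had 17.7 CPM. Its rho with the mast cell genes was 0.48, and 0.26 after group means were removed.

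Of 12 genes that signal below the IgE receptor, all tested, 11 had an unadjusted p under 0.05 and a higher mean with the WT combination, and 5 did in the FcD combination, against 13.2% and 10.7% of all genes. Without library 77, none of the 12 did with WT, and their median log2 fold change went from 0.80 to 0.26. Without library 50, 9 of the 12 did in the FcD combination, against 14.8% of all genes. With all mice they included Fcer1g, the γ chain of the receptor (0.96 ± 0.31 with WT and 0.72 ± 0.31 with FcD), and the kinase gene Syk (1.31 ± 0.39 and 0.85 ± 0.39), and without library 77 the WT values were 0.41 ± 0.27 and 0.43 ± 0.31. Myeloid cells and lymphocytes use these genes too. Of the 8 genes of growth factors and cytokines that act on mast cells, 4 could be tested and none had an unadjusted p under 0.05 with either combination. Kitl, the ligand of Kit, was at 0.08 ± 0.15 with WT and -0.03 ± 0.15 with FcD, and Il33 at 0.40 ± 0.36 and 0.60 ± 0.36. Il9 was at 0 counts in all 40 mice, and Il3 and Il4 had at most 1 and 5 counts.

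**Figure D4:**
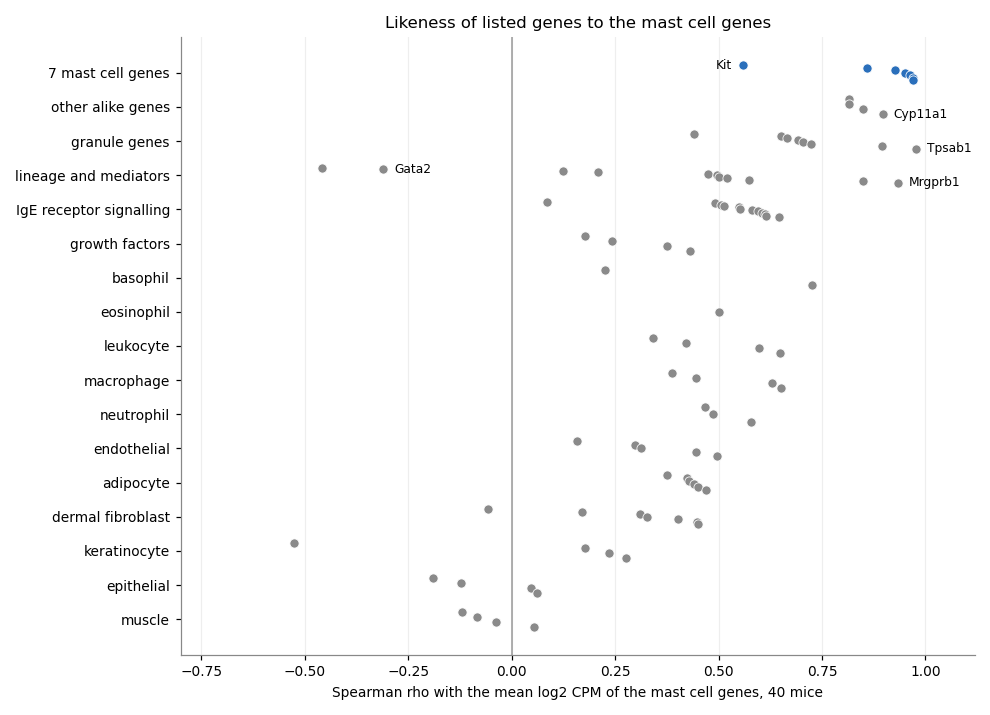
Spearman's rho over the 40 mice between the log2 CPM of each tested gene and the mean log2 CPM of the mast cell genes (horizontal axis), grouped by list (vertical axis), with 1 point per gene and each of the 7 set against the mean of the other 6. Tpsab1 (0.98) and Mrgprb1 (0.93) lie among the 7 genes, whereas Kit is at 0.56 and Gata2 at -0.31.

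The mast cell genes were also set beside Ptprc, whose rho with them was 0.65 over the 40 mice. Their summed level was 34.0 to 98.1 CPM in control tumors, 119 to 436 CPM in the WT combination and 80.8 to 198 CPM in the FcD combination. Per CPM of Ptprc, the sum was 0.27 to 0.77 in controls (median 0.44), 0.56 to 1.08 with the WT combination (median 0.86) and 0.64 to 0.76 with the FcD combination (median 0.67). With the anti-TGF-β combination it was 0.45 to 1.27 (median 0.72), and with anti-PD-1 alone 0.43 to 1.14 (median 0.78). With the other mAbs alone it was 0.33 to 1.13 for anti-TGF-β (median 0.43), 0.56 to 1.48 for anti-GARP:TGF-β1 WT (median 0.60) and 0.40 to 1.09 for FcD (median 0.48). The ratios of the 8 groups overlapped, and those of the 5 FcD combination tumors lay closest together. Library 77, highest in the sum, was at 0.56, the lowest ratio of its group, whereas libraries 52 and 53 were at 1.14 and 1.11.

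**Figure D5:**
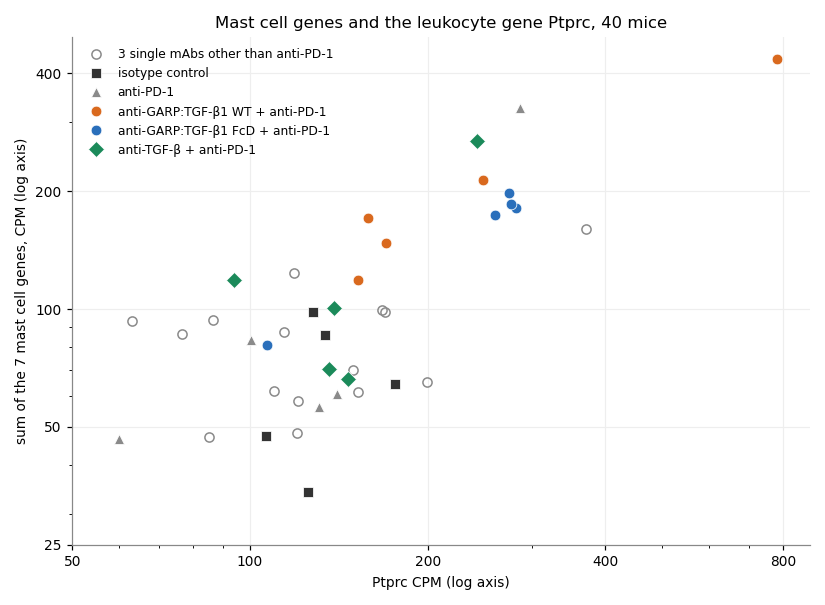
Summed level of the 7 mast cell genes (vertical axis, CPM, logarithmic) against Ptprc (horizontal axis, CPM, logarithmic) in 40 mice, with symbols for the groups. Library 77 is at the upper right, with 782 CPM of Ptprc and a sum of 436 CPM, and 4 of the 5 tumors of the FcD combination lie together at a sum of 174 to 198 CPM.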

How the data were processed

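Counts per gene were deposited by the authors as raw counts, without normalization, from paired-end reads of stranded mRNA libraries of 40 tumors. Per the submitters' processing notes, reads were aligned to GRCm38 with STAR 2.5.3a and handled with SAMtools 1.6, and counted with HTSeq 0.9.1, whose strand setting is not given in the sources used here. All 40 columns were used, each by its library number. In edgeR 4.0.16 under R 4.3.3, libraries were scaled by TMM, filtered with filterByExpr (14760 of 54087 genes kept) and tested in 1 quasi-likelihood model of all 8 groups, with Benjamini-Hochberg adjustment over all genes. The 2-sided tests covered 12 comparisons, 3 interactions, any difference among groups and the part of the series. CPM values use TMM library sizes, and log2 CPM a prior count of 2. Standard errors are the log2 fold change over the square root of F. Relations were tested with 2-sided permutation tests (100000 resamples, scipy 1.17.1, numpy 2.4.6). Alternatives were DESeq2's size factors and tests (DESeq2 1.42.0; its likelihood ratio test for any difference among groups), no filter (31326 genes with at least 1 count), only the groups compared, the library part as a covariate, a prior count of 0.5, and leaving out each mouse. The fit was tested on simulated data.

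The members and gene lists were chosen with earlier results of these data known. Named genes were the 7 members, genes of the lists needed to describe them, and the 8 other genes with the highest rho with the mean of the members. Isg15 was outside these and was named after its values were seen, as the only gene called in 1 comparison. Replicate numbers were given in accession order and pair no mice. Counts of any 2 mice of a group differed by more than sampling noise (chi-square of at least 5.46 per degree of freedom). That the 5 samples of a group are separate mice comes from the study's methods. Exon lengths and positions were taken from GENCODE vM21.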

Additional observations from a re-analysis of the deposited data

Results flagged for a closer look

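In groups of 5, the highest or lowest mouse was set against the nearest of the others, with a gap of over 0.71 of the group's range taken as far. Of 56 combinations of gene and group, 17 met this, in 5 libraries. Chance gives about 1 in 20 for normally distributed values, and CPM values, taken here without logarithms, need not be so distributed. The 7 genes also move together, so that 1 tumor can be counted up to 7 times. Library 52, given anti-PD-1, was far above its group for Cpa3 (65.0 CPM, next 15.8), Cma1 (64.8), Mcpt4 (70.6), Tpsb2 (101.6, next 26.1) and Ms4a2 (5.10). Library 77, of the WT combination, was far above for Cpa3 (98.2 CPM), Tpsb2 (149.5), Kit (38.5) and Fcer1a (8.90). Library 53, of the anti-TGF-β combination, was far above for Cpa3 (54.9 CPM), Tpsb2 (89.6), Kit (12.7) and Ms4a2 (3.41). Library 50, of the FcD combination, was far below for Cpa3 (14.8 CPM), Cma1 (13.9) and Tpsb2 (26.2). Library 48, given anti-TGF-β, was far above for Kit alone (14.0 CPM, next 6.25).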

How the results depend on the processing

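Single log2 fold changes were recomputed for 64 results: each of the 7 genes in the 7 treated groups against the isotype control and in both anti-GARP:TGF-β1 combinations against anti-PD-1, and Fcer1a between both forms given alone. All 64 kept their direction in 320 recomputations with DESeq2's size factors, no filter, the library part as a covariate, only the groups compared, or DESeq2's test. For the WT combination against the isotype control, adjusted p over these ran from 0.078 (DESeq2) to 0.337 (only the groups compared), and for the FcD combination from 0.061 to 0.394. The 7 genes stayed at 0 calls in each comparison of 2 groups. DESeq2's likelihood ratio test for any difference among the 8 groups called 7, among 1256 of the 31326 genes with at least 1 count. With 1 mouse left out, calls ran from 0 to 6 for the WT combination against anti-PD-1 and from 0 to 6 for any difference among groups (6 without library 52, where 1.25% of all genes were called, 6 without 53, with 15.7%, 5 without 50, with 7.77%, and 2 without 48, with 2.61%), and were 0 elsewhere. The cause was not tested. All 21 relations among the genes held with a prior count of 0.5 and with DESeq2's size factors.

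Counts at unadjusted p without libraries 77 and 50 were chosen after seeing the data. Directions turned in 12 of the 64 when 1 mouse was left out. Other comparisons were recomputed for calls and medians only, and the medians of the anti-TGF-β combination against anti-PD-1 (-0.35 to 1.09) and of the anti-TGF-β interaction (-0.87 to 0.46) turned. With anti-PD-1 alone, the ranges were -0.26 to 0.94 (Cpa3), -0.26 to 0.96 (Cma1), -0.068 to 1.16 (Mcpt4), -0.080 to 1.15 (Tpsb2) and -0.018 to 0.87 (Fcer1a). With anti-GARP:TGF-β1 FcD alone, they were -0.38 to 0.085 (Cpa3), -0.20 to 0.18 (Cma1), -0.071 to 0.28 (Mcpt4), -0.22 to 0.26 (Tpsb2) and -0.027 to 0.48 (Ms4a2). Kit with anti-TGF-β ran from -0.10 to 0.41, and Ms4a2 with the anti-TGF-β combination from -0.23 to 1.05. No paired analysis was possible because the labels give no replicate numbers. Low counts limit Fcer1a and Ms4a2, and intervals cover counting and sampling spread of these mice only.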
